A study of Mus musculus with 6 samples.

Results

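The transcripts of 10 genes of the NF-kB system were followed in RAW264.7 cells, a macrophage-like line derived from a mouse tumour induced by a leukaemia virus, after 3 days of growth on coated zinc alloys. The genes were taken by name: 4 subunits of the transcription factor (Nfkb1, Nfkb2, Rel and Relb), 3 members of the IkB family (Nfkbia, Nfkbie and Nfkbiz), and 3 brakes on signalling or on its transcripts (Tnfaip3, Tnip1 and Zc3h12a). They are 10 of the 54532 genes in the deposited table, and all 10 were among the 13156 genes expressed well enough to test. The metal under the coating held zinc, manganese and lithium (the alloy named CaP Zn0.8Mn0.1Li), zinc and manganese (CaP Zn0.8Mn) or zinc alone (CaP Zn), with 2 polyadenylated RNA libraries per alloy. All 3 groups share the zinc and the calcium phosphate (CaP) coating, and no library of cells on another surface was analysed here. The study asked how such implant alloys bear on macrophage polarization where bone forms. A tumour-derived line stands in for macrophages here, and no source states that the 2 libraries of a group were separate cultures, so the spread behind each p-value may be technical.

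NF-kB factors are dimers that IkB proteins hold inactive in resting macrophages. Signals from Toll-like, interleukin 1 and tumour necrosis factor receptors activate a kinase complex that marks IkB proteins for destruction, and the freed dimers enter the nucleus and switch on cytokines, chemokines and survival genes. Among the genes they switch on are those for their own inhibitors, which close feedback loops, so that transcripts of the inhibitors are widely read as a record of recent NF-kB activity in macrophages.

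Because several of these genes are textbook targets of NF-kB themselves, their RefSeq promoters (build GRCm38.p6, from 250 bases before to 50 bases after each start) were searched on both strands for the kappaB consensus decamer. Windows were held for 7 of the 10 genes, 10 windows in all, and a match lay in 8 of the 10 windows and in 6 of the 7 genes, against 2779 of 32851 RefSeq windows of the same length (8.46%). Windows 2 and 3 of Nfkb2 overlap and share a match. Zc3h12a was the gene whose window held no match. Such a match is a run of letters and not a shown binding site. The 5 windows below, each printed 5′ to 3′ on the strand of its gene with matches in capitals and overlapping matches merged, show 3 inhibitor genes with matches, Zc3h12a as the inhibitor gene without one, and 1 subunit gene for comparison.
Nfkbia promoter (chr12:55492598-55492897, minus strand): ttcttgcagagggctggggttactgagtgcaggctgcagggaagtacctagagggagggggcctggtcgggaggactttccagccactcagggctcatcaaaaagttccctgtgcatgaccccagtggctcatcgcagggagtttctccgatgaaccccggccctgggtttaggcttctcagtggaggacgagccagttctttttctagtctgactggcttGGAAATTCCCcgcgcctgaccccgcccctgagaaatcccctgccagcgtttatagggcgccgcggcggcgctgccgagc
Tnip1 promoter (chr11:54962891-54963190, minus strand): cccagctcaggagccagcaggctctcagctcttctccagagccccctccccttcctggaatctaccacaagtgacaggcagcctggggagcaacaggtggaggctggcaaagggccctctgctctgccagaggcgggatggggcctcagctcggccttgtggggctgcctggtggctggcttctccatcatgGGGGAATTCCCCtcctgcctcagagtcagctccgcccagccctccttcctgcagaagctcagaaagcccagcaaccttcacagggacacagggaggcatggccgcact
Tnfaip3 promoter (chr10:19015361-19015660, minus strand): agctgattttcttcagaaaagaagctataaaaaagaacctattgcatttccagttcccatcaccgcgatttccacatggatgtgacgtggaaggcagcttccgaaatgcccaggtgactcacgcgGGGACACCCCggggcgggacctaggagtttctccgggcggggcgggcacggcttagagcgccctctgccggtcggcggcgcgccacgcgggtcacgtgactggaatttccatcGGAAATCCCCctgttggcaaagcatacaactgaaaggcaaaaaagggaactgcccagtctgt
Zc3h12a promoter (chr4:125127832-125128131, minus strand): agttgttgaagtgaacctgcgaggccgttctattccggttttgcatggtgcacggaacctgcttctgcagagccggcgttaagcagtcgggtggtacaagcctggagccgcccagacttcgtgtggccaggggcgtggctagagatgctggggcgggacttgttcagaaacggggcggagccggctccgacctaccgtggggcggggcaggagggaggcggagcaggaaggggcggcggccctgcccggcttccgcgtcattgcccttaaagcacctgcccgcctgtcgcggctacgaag
Nfkb2 promoter (chr19:46304487-46304786, plus strand): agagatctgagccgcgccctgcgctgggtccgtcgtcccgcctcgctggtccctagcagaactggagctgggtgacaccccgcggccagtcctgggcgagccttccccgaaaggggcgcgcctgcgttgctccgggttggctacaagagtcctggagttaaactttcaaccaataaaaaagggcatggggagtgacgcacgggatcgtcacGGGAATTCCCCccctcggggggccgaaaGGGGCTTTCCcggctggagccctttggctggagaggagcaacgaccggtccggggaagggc
The Nfkbia match begins 29 bases upstream of the start. In Tnip1 the 4 overlapping matches, read from both strands, merge into 1 run that begins 58 bases upstream. Tnfaip3 has a match 125 and another 12 bases upstream, and the first window of Nfkb2 has a run 39 and another 11 bases upstream.

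Total counts per library ran from 14944070 to 17709290, which puts 3 counts at 0.161 to 0.198 CPM (counts scaled to a common library size, with TMM factors between libraries), far below every value given here for the 10 genes. Defining macrophage genes were present, with Csf1r at 319 to 1598 CPM, Adgre1 at 188 to 331 CPM and Cd68 at 388 to 578 CPM. Those of fibroblasts (Col1a1, 0 to 2 counts), T cells (Cd3e, 0 to 1 counts) and granulocytes (Ly6g, 0 to 1 counts) were at or near 0. One library differed widely from the rest, CaP Zn0.8Mn replicate 1. Mitochondrially encoded genes took 7.88% of its counts, against 1.82% to 2.15% in the others, and 5508 of the 13156 tested genes (41.9%) read lower there than in every other library. Results that rest on it are given with and without it.

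With that library left aside, the 10 genes held narrow levels on all 3 alloys. The highest of the 5 libraries was 1.13 (Tnip1) to 1.39 (Tnfaip3) times the lowest. Levels of different genes can be set beside each other per length, as the authors' FPKM (fragments per length of gene and size of library). By the mean of these 5 libraries the order was Nfkbia at 103 FPKM, then Tnip1 at 38.5, Zc3h12a at 25.6, Rel at 22.0, Nfkb2 at 19.8, Nfkbiz at 18.9, Nfkb1 at 10.1, Relb at 7.02, Tnfaip3 at 5.95 and Nfkbie at 3.63 FPKM. Neighbours in that order whose ranges over the 5 libraries overlapped were Rel and Nfkb2, Nfkb2 and Nfkbiz, and Relb and Tnfaip3. The transcript of the classical inhibitor was thus the most abundant of the 10 per length, at 82.5 to 114 FPKM, and that of its relative Nfkbie the least, at 3.27 to 4.49 FPKM.

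**Figure D1:**
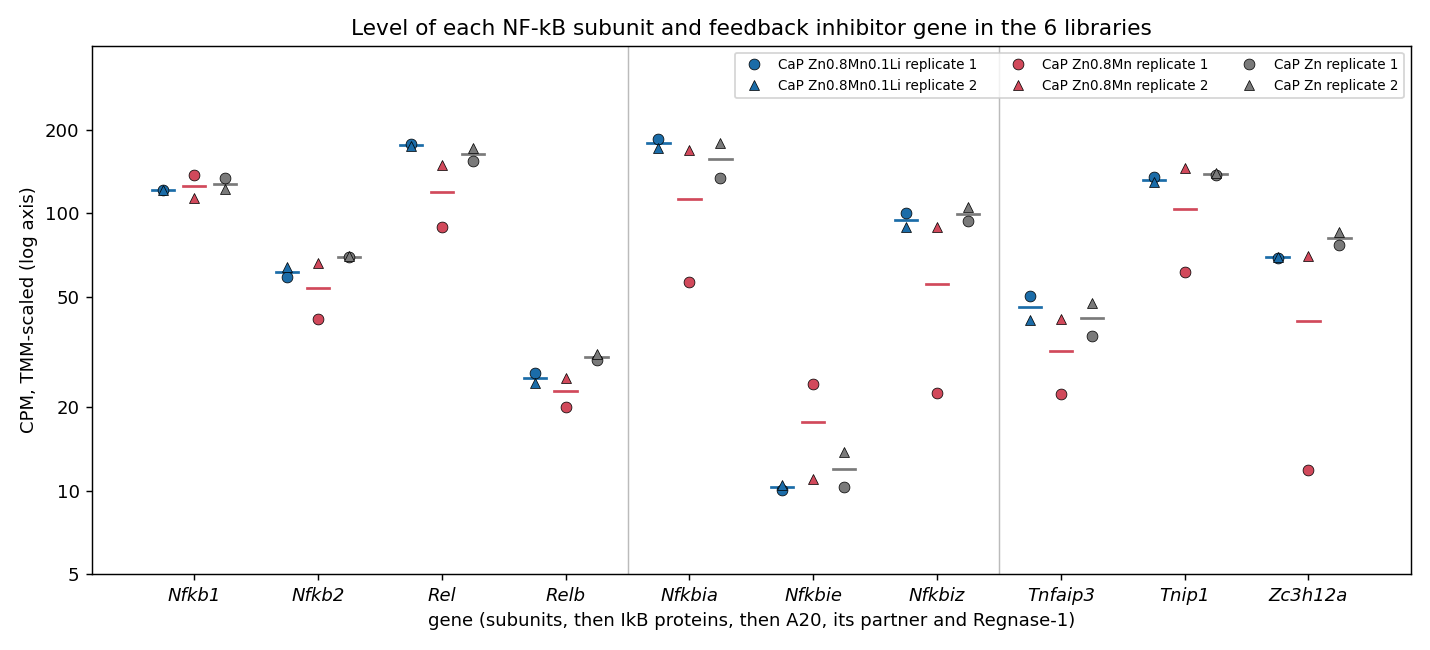
CPM of the 10 genes (log axis) in each library, with a bar at each group's mean of 2 libraries, in the order CaP Zn0.8Mn0.1Li, CaP Zn0.8Mn, CaP Zn. CaP Zn0.8Mn replicate 1 (red circles) lies below the other 5 libraries for 8 genes, furthest for Zc3h12a at 11.8 CPM against 69.1 to 85.4 CPM, and above them for Nfkb1 and Nfkbie.

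Among the subunits, Nfkb1 (ENSMUSG00000028163, chromosome 3: 135584655 to 135691547 of build GRCm38, as for all genes here, minus strand), whose precursor is cut to the DNA-binding partner of Rela and Rel, read 121 and 122 CPM on CaP Zn0.8Mn0.1Li, 137 and 113 CPM on CaP Zn0.8Mn, and 133 and 122 CPM on CaP Zn. The 6 values lie close together with CaP Zn0.8Mn holding both the highest and the lowest. Nfkb2 (ENSMUSG00000025225, chromosome 19: 46304737 to 46312090, plus strand), the precursor subunit of the non-canonical arm, read 58.9 and 63.8 CPM on CaP Zn0.8Mn0.1Li, 41.4 and 66.0 CPM on CaP Zn0.8Mn, and 69.2 and 69.9 CPM on CaP Zn. Both CaP Zn libraries lay above the other 4, and CaP Zn0.8Mn replicate 1 was the lowest. Nfkb2 overlaps Psd on the opposite strand, and since no source says whether counting used strand, reads of the pair cannot be told apart. Psd itself had 61 to 146 counts per library, against 627 to 1287 for Nfkb2. The overlapping genes of Nfkb1 (Gm43430, same strand) and Tnip1 (Gm12230, opposite strand) had at most 27 and 11 counts.

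Rel (ENSMUSG00000020275, chromosome 11: 23736847 to 23770970, minus strand), the blood-cell subunit that drives many cytokine genes, read 177 and 174 CPM on CaP Zn0.8Mn0.1Li, 88.8 and 149 CPM on CaP Zn0.8Mn, and 154 and 171 CPM on CaP Zn. Its lithium-alloy libraries were the highest of the 6 and its CaP Zn0.8Mn libraries the lowest. Relb (ENSMUSG00000002983, chromosome 7: 19606217 to 19629438, minus strand), the non-canonical partner of the Nfkb2 product, read 26.6 and 24.4 CPM on CaP Zn0.8Mn0.1Li, 20.02 and 25.5 CPM on CaP Zn0.8Mn, and 29.6 and 31.2 CPM on CaP Zn. Both manganese-bearing alloys lay below CaP Zn without overlap, and they overlapped each other.

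Of the IkB genes, Nfkbia (ENSMUSG00000021025, chromosome 12: 55489410 to 55492647, minus strand), which encodes IkB-alpha, the fast feedback inhibitor, read 185 and 172 CPM on CaP Zn0.8Mn0.1Li, 56.5 and 168 CPM on CaP Zn0.8Mn, and 134 and 179 CPM on CaP Zn. CaP Zn replicate 1 was the second lowest of the 6, and the other 4 libraries outside CaP Zn0.8Mn replicate 1 lay close together, so that CaP Zn0.8Mn0.1Li and CaP Zn overlapped. Nfkbie (ENSMUSG00000023947, chromosome 17: 45555703 to 45563169, plus strand), which encodes IkB-epsilon, a slower inhibitor, read 10.0 and 10.5 CPM on CaP Zn0.8Mn0.1Li, 24.3 and 11.1 CPM on CaP Zn0.8Mn, and 10.3 and 13.8 CPM on CaP Zn. One library, CaP Zn0.8Mn replicate 1, was high and the other 5 were alike. Nfkbiz (ENSMUSG00000035356, chromosome 16: 55811375 to 55838899, minus strand), which encodes the nuclear cofactor IkB-zeta needed for a second wave of cytokine genes, read 100.04 and 88.9 CPM on CaP Zn0.8Mn0.1Li, 22.5 and 88.9 CPM on CaP Zn0.8Mn, and 93.9 and 105 CPM on CaP Zn. Here the same library was low and the groups CaP Zn0.8Mn0.1Li and CaP Zn overlapped.

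Of the brakes, Tnfaip3 (ENSMUSG00000019850, chromosome 10: 19000910 to 19015657, minus strand), which encodes the ubiquitin-editing enzyme A20, read 50.2 and 41.2 CPM on CaP Zn0.8Mn0.1Li, 22.3 and 41.6 CPM on CaP Zn0.8Mn, and 36.2 and 47.3 CPM on CaP Zn. Groups overlapped in all 3 comparisons. Tnip1 (ENSMUSG00000020400, chromosome 11: 54910785 to 54962917, minus strand), a ubiquitin-binding partner of A20, read 135 and 129 CPM on CaP Zn0.8Mn0.1Li, 61.3 and 145 CPM on CaP Zn0.8Mn, and 137 and 140 CPM on CaP Zn. The CaP Zn0.8Mn libraries were at once the lowest and the highest of the 6. Zc3h12a (ENSMUSG00000042677, chromosome 4: 125118423 to 125127840, minus strand), which encodes Regnase-1, an RNase that destroys cytokine mRNAs, read 69.1 and 69.3 CPM on CaP Zn0.8Mn0.1Li, 11.8 and 70.2 CPM on CaP Zn0.8Mn, and 76.9 and 85.4 CPM on CaP Zn. Both CaP Zn libraries were the highest, CaP Zn0.8Mn replicate 1 was far below, and the other 3 libraries were almost equal.

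The gap between CaP Zn0.8Mn replicate 1 and the other 5 libraries was the widest difference in these genes. It is a difference of 1 library and carries no test. Zc3h12a was 6.27 times lower there than the mean of the others (log2 ratio -2.65), Nfkbiz 4.23 times (-2.08), Nfkbia 2.97 times (-1.57) and Tnip1 2.24 times (-1.16). These 4 of 10 were over 2-fold lower, against 18.2% of all tested genes, and Nfkbie was the 1 over 2-fold higher (log2 ratio 1.13), against 15.4%. The subunits moved less, at -0.89 for Rel, -0.66 for Nfkb2, -0.46 for Relb and 0.16 for Nfkb1, and Tnfaip3 stood at -0.96. The median of the 10 log2 ratios was -0.93, beside 0.0032 for all tested genes. Below every other library were 8 of the 10 (41.9% of all tested genes) and above every other 2 of the 10 (42%). The RNA of all cells was pooled in each library, so that fewer cells of a type and less RNA per cell cannot be told apart.

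**Figure D2:**
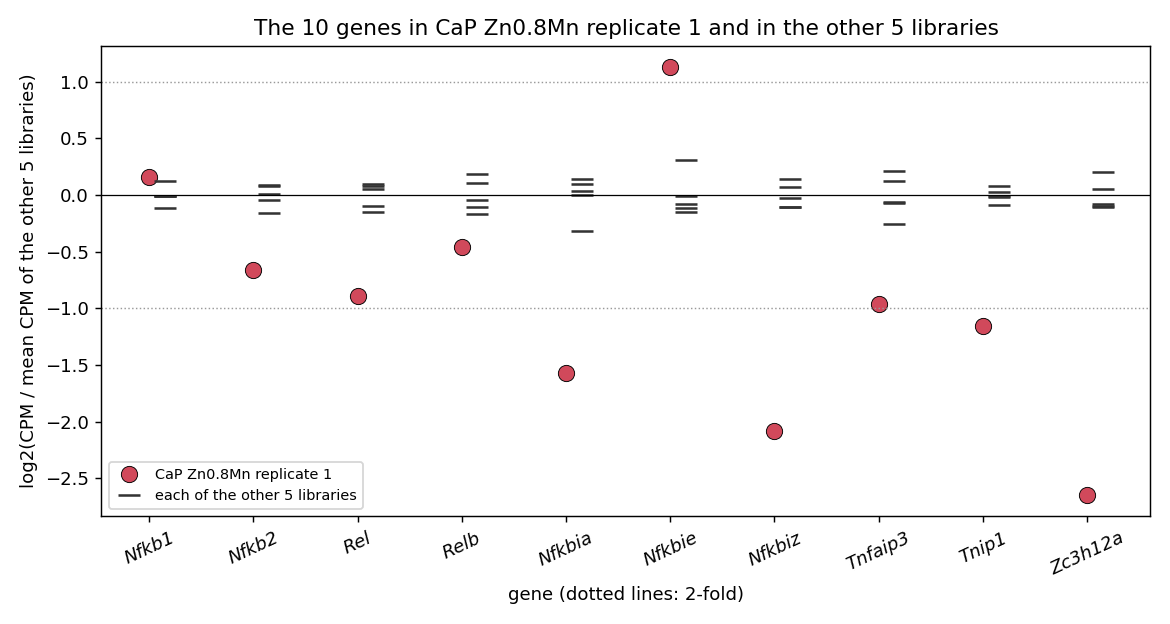
Log2 ratio of each library's CPM to the mean CPM of the 5 libraries other than CaP Zn0.8Mn replicate 1, for the 10 genes. That library (red circles) runs from -2.65 for Zc3h12a to 1.13 for Nfkbie, and the other 5 (dashes) stay within 2-fold for every gene.

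Summed per role, the 4 subunits came to 58.2 and 58.5 FPKM on CaP Zn0.8Mn0.1Li, 39.9 and 55.8 FPKM on CaP Zn0.8Mn, and 59.7 and 61.9 FPKM on CaP Zn. The 3 IkB genes came to 138 and 127 FPKM on CaP Zn0.8Mn0.1Li, 46.3 and 125 FPKM on CaP Zn0.8Mn, and 104 and 136 FPKM on CaP Zn, sums that Nfkbia dominates. The 3 brakes came to 68.7 and 65.6 FPKM on CaP Zn0.8Mn0.1Li, 23.9 and 70.9 FPKM on CaP Zn0.8Mn, and 69.5 and 75.1 FPKM on CaP Zn. The IkB genes and brakes together came to more FPKM than the subunits in all 6 libraries, by the least in CaP Zn0.8Mn replicate 1. The ratio of the sums was 3.55 and 3.29 for CaP Zn0.8Mn0.1Li, 1.76 and 3.52 for CaP Zn0.8Mn, and 2.91 and 3.41 for CaP Zn. Without Nfkbiz, whose product also switches genes on, it was 3.21 and 2.99 for CaP Zn0.8Mn0.1Li, 1.65 and 3.20 for CaP Zn0.8Mn, and 2.60 and 3.07 for CaP Zn. Nfkbia alone was 11.4 and 10.6 times Nfkb1 per length on CaP Zn0.8Mn0.1Li, 3.10 and 11.1 times on CaP Zn0.8Mn, and 7.55 and 11.01 times on CaP Zn. After CaP Zn0.8Mn replicate 1, CaP Zn replicate 1 had the lowest ratio on each of these measures.

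**Figure D3:**
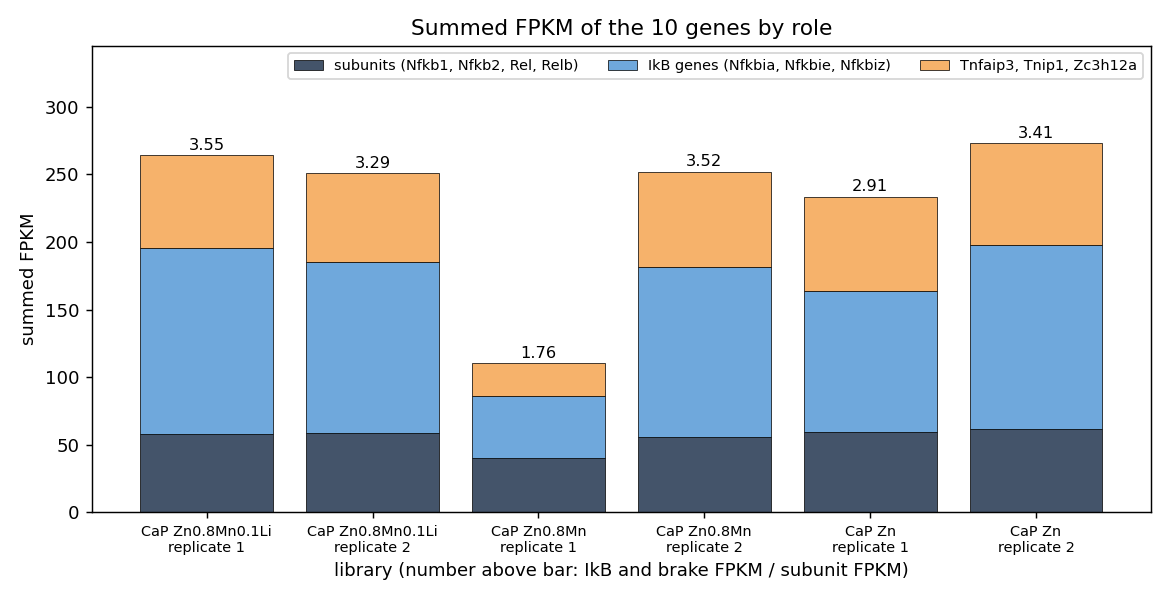
Stacked bars of summed FPKM of the 4 subunit genes, the 3 IkB genes and the 3 other brakes in each library, with the ratio of IkB genes and brakes to subunits above each bar. CaP Zn0.8Mn replicate 1 has the shortest bar and a ratio of 1.76, while the other 5 libraries lie between 2.91 and 3.55.

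The first comparison set CaP Zn0.8Mn0.1Li over CaP Zn, a pair that differs in both manganese and lithium. Neither group contains the library standing apart, although its spread enters the shared estimate of error. None of the 10 genes passed the threshold of the edgeR quasi-likelihood test (Benjamini-Hochberg adjusted p under 0.05), nor did any of the 13156 tested genes (0%). At an unadjusted p under 0.05 were 29 genes (0.22%) and 0 of the 10. Adjusted p was 1.00 for all 10 by edgeR. Log2 fold changes ran from -0.25 (Relb, SE 0.21) to 0.19 (Nfkbia, SE 0.50), 3 of them above 0 and 7 below, with a median of -0.07 beside 0.00 for all tested genes. DESeq2 and limma-voom also called 0 genes.

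Fitted without CaP Zn0.8Mn replicate 1, the same comparison kept its estimates and had smaller errors. Zc3h12a averaged 69.2 ± 0.149 CPM on CaP Zn0.8Mn0.1Li and 81.1 ± 6.02 CPM on CaP Zn (SD, n = 2 each), a log2 fold change of -0.23 (SE 0.089). Its p was 0.0214 before and 0.957 after adjustment in edgeR. Relb averaged 25.5 ± 1.58 CPM on CaP Zn0.8Mn0.1Li and 30.4 ± 1.12 CPM on CaP Zn (SD, n = 2 each), a log2 fold change of -0.25 (SE 0.12) with an edgeR p of 0.0490 before and 0.967 after adjustment. These were 2 of the 10 at an unadjusted p under 0.05, where 660 of all tested genes (5.02%) were, and neither passed. Nfkb2 followed at -0.18 (SE 0.089), and Rel (0.11, SE 0.081), Tnfaip3 (0.13, SE 0.13) and Nfkbia (0.19, SE 0.11) were the 3 with estimates above 0. Nfkbia depended on CaP Zn replicate 2: with that library omitted as well, edgeR called Nfkbia at 0.41 (SE 0.095, adjusted p = 0.00145), 1 of the 10 beside 454 of all tested genes (3.45%), in a fit with 1 residual degree of freedom that takes the lone CaP Zn library to vary like the others.

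Groups did not overlap for 6 of the 10. Lower on CaP Zn0.8Mn0.1Li in both libraries than in either CaP Zn library were 5 (Nfkb1, Nfkb2, Relb, Tnip1 and Zc3h12a), where 16.8% of all tested genes were, and higher was Rel (16.7% of all tested genes). For some the edge was thin. The nearest libraries of the pair read 135 and 137 CPM for Tnip1, and both round to 122 CPM for Nfkb1. By role these were the 4 subunits, 3 downwards and Rel upwards, and the brakes Tnip1 and Zc3h12a, both downwards. None of the 3 IkB genes was among them. With 2 libraries a group such separation is common among all tested genes, and none of the 6 passed in edgeR, so no difference between roles is read from it.

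The second comparison, CaP Zn0.8Mn over CaP Zn, is the pair that differs in manganese alone. With all 6 libraries, 0 of the 10 and 0 of the 13156 tested genes (0%) passed in edgeR, with 207 genes (1.57%) and 0 of the 10 at an unadjusted p under 0.05. DESeq2 called 1 gene, none of the 10, and limma-voom 0. Adjusted p in edgeR ran from 0.773 to 0.948 for the 10. Log2 fold changes were below 0 for 9 of them and above 0 for Nfkbie at 0.56 (SE 0.42), with a median of -0.42 beside 0.0048 for all tested genes. The lowest were Zc3h12a at -0.98 (SE 0.75) and Nfkbiz at -0.84 (SE 0.60), whose group means were 41.0 ± 41.3 and 55.7 ± 46.9 CPM on CaP Zn0.8Mn against 81.1 ± 6.02 and 99.6 ± 8.11 CPM on CaP Zn (SD, n = 2 each). The SD of the first is as large as its mean, since the 2 libraries read 11.8 and 70.2 CPM. Groups did not overlap for 5 genes lower on CaP Zn0.8Mn (Nfkb2, Rel, Relb, Nfkbiz and Zc3h12a), beside 12.8% of all tested genes, and for 0 higher (12.5%).

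These values turned on single libraries. Without CaP Zn0.8Mn replicate 1, the range narrowed to between -0.25 (Relb, SE 0.15) and 0.10 (Nfkbia, SE 0.14), the median was -0.12 beside -0.0084 for all tested genes, and 0 of the 10 passed in edgeR, where 2 of 13156 genes did (0.0152%), and 569 genes (4.33%) and 0 of the 10 had an unadjusted p under 0.05. Zc3h12a then stood at -0.21 (SE 0.11) and Nfkbiz at -0.16 (SE 0.11), and Nfkbia, Nfkbie and Tnip1 changed sign. The remaining CaP Zn0.8Mn library lay below both CaP Zn libraries for 6 of the 10 (32.8% of all tested genes) and above both for 1 (32%). Without CaP Zn0.8Mn replicate 2, in contrast, edgeR called 9 of the 10, all but Nfkb1, and 7808 of all tested genes (59.3%), from -2.79 for Zc3h12a to 1.01 for Nfkbie. That fit takes the lone library to vary like those of the other groups. The CaP Zn0.8Mn libraries therefore differed widely in these genes, and they are the group's only libraries here.

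The comparison of CaP Zn0.8Mn0.1Li over CaP Zn0.8Mn concerns the addition of lithium. It shares the CaP Zn0.8Mn libraries with the comparison just given and the CaP Zn0.8Mn0.1Li libraries with the first, and those 2 share the CaP Zn libraries, so the values are given side by side and not as separate evidence. With all 6 libraries 0 of the 10 and 0 of the 13156 genes (0%) passed in edgeR, with 316 genes (2.4%) and 0 of the 10 at an unadjusted p under 0.05, and DESeq2 called 3 genes, none of the 10, and limma-voom 0. Adjusted p in edgeR lay between 0.680 and 0.914 for the 10. Log2 fold changes ran from -0.78 for Nfkbie (SE 0.42) to 0.76 for Nfkbiz (SE 0.60), with 8 above 0 and 2 below and a median of 0.44 beside -0.0019 for all tested genes.

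Rel had the smallest p of the 10 in this pair. It averaged 175 ± 1.73 CPM on CaP Zn0.8Mn0.1Li and 119 ± 42.6 CPM on CaP Zn0.8Mn (SD, n = 2 each), a log2 fold change of 0.56 (SE 0.28) with an edgeR p of 0.0935 before and 0.680 after adjustment. Both lithium-alloy libraries exceeded both CaP Zn0.8Mn libraries, also the one that resembled the rest at 149 CPM. Without CaP Zn0.8Mn replicate 1 the Rel estimate was 0.23 (SE 0.10), with an edgeR p of 0.0345 before and 1.00 after adjustment, the 1 of the 10 under 0.05 where 3.16% of all tested genes were. Groups did not overlap for 3 genes that were higher on CaP Zn0.8Mn0.1Li (Rel, Nfkbia and Nfkbiz; 17.1% of all tested genes) and for 1 that was lower (Nfkbie; 17.5%).

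Without CaP Zn0.8Mn replicate 1 the median was 0.04, 5 estimates were above 0 and 5 below, and 0 of the 10 passed in edgeR, where 2 of all tested genes did (0.0152%). The CaP Zn0.8Mn0.1Li libraries were then both above the remaining CaP Zn0.8Mn library for 4 of the 10 (33.5% of all tested genes) and both below for 4 (34.4%). Without CaP Zn0.8Mn replicate 2, edgeR called 8 of the 10, all but Nfkb1 and Relb, and 8096 of all tested genes (61.5%), with Zc3h12a at 2.55, Nfkbiz at 2.07, Nfkbia at 1.66 and Nfkbie at -1.24. Each other library, left out singly, left 0 of the 10 called in all 3 comparisons.

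**Figure D4:**
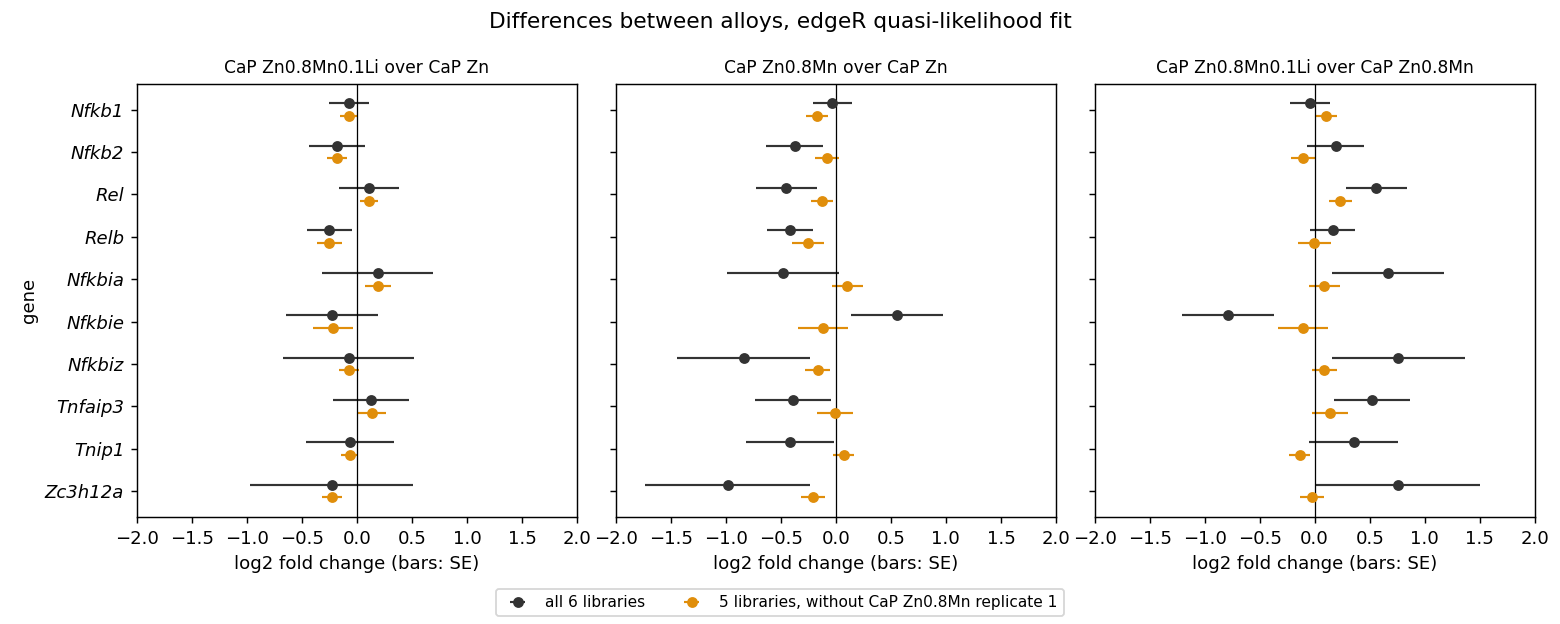
Log2 fold changes with standard errors from edgeR for the 10 genes in the 3 comparisons, fitted to all 6 libraries (black) and to 5 without CaP Zn0.8Mn replicate 1 (orange). In CaP Zn0.8Mn0.1Li over CaP Zn both fits give nearly the same estimates, between -0.25 and 0.19. In the comparisons with CaP Zn0.8Mn, Zc3h12a stands at -0.98 (over CaP Zn) and Nfkbiz at 0.76 with 6 libraries, and at -0.21 and 0.09 with 5.

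The rest of the pathway was read from lists of genes arranged by role, chosen with earlier results of these data known. In none of these lists did any gene pass in edgeR in any of the 3 comparisons, with all 6 libraries or without CaP Zn0.8Mn replicate 1. Counts of genes over 2-fold apart in that library are to be read beside 15.4% higher and 18.2% lower of all tested genes, and counts at an unadjusted p under 0.05 in CaP Zn0.8Mn0.1Li over CaP Zn without it beside 5.02%. Of the 9 other subunit and IkB genes, all tested, 3 had higher and 6 lower estimates on CaP Zn0.8Mn0.1Li than on CaP Zn (median log2 fold change -0.0051), and 0 of the 9 had an unadjusted p under 0.05 in edgeR without CaP Zn0.8Mn replicate 1. In that library 1 of the 9 was over 2-fold higher and 4 over 2-fold lower. Rela, the main activating subunit, read 31.5 and 34.1 CPM on CaP Zn0.8Mn0.1Li, 43.5 and 31.4 CPM on CaP Zn0.8Mn, and 37.0 and 34.9 CPM on CaP Zn, with a log2 fold change of -0.13 (SE 0.22) between the first and the last. Like Nfkb1, Rela was highest in CaP Zn0.8Mn replicate 1. Nfkbib, which encodes IkB-beta, read 75.6 and 74.7 CPM on CaP Zn0.8Mn0.1Li, 23.3 and 66.3 CPM on CaP Zn0.8Mn, and 74.3 and 76.1 CPM on CaP Zn, low in the same library as Nfkbia and Nfkbiz. Nkiras2, which slows the breakdown of IkB proteins, ran from 58.9 to 79.4 CPM and Nfkbil1 from 17.0 to 24.2 CPM, both lowest in CaP Zn0.8Mn replicate 1, and Nkrf, a repressor, read 16.6 CPM there against 4.33 to 6.84 CPM elsewhere.

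Upstream, the receptors and adaptors leaned higher in that library, with a median log2 ratio of 0.53, though some read lower. Of 27 tested genes 9 were over 2-fold higher (15.4% of all tested genes), 2 over 2-fold lower (18.2%) and the other 16 within 2-fold. Above all 5 other libraries were 19 of the 27 (42% of all tested genes), and below all 5 were 6 (41.9%). Their summed CPM was 2187 against 1291 to 1342 in the other 5. Tlr2, the receptor for bacterial lipoproteins, read 235 CPM there against 67.7 to 80.2 CPM, Tlr9, the receptor for unmethylated DNA, 33.0 against 2.11 to 4.89 CPM, and Cd14, a co-receptor for endotoxin, 650 against 303 to 378 CPM. Irak4, a kinase of the same receptors, read 42.2 against 13.8 to 21.5 CPM, while its relative Irak2 was low, at 63.6 against 124 to 164 CPM, and the adaptor gene Traf5 lay within the others at 8.92 against 5.04 to 9.53 CPM. In CaP Zn0.8Mn0.1Li over CaP Zn, 6 of the 27 had higher and 21 lower estimates (median log2 fold change -0.08), with Tlr9 at -0.73 (SE 1.05), Traf5 at -0.38 (SE 0.37) and Irak4 at -0.34 (SE 0.45). Fitted to the other 5 libraries, these SEs were 0.30, 0.21 and 0.16. At an unadjusted p under 0.05 in edgeR were then 0 of the 27 higher and 2 lower. Tlr9 was among them, with an edgeR adjusted p of 0.967.

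The kinase complex and its ubiquitin machinery had the smallest share of over 2-fold departures of the 5 lists. Of 19 tested genes 2 were over 2-fold lower and 0 higher in CaP Zn0.8Mn replicate 1, the summed CPM was 1262 against 1142 to 1176 elsewhere, and in CaP Zn0.8Mn0.1Li over CaP Zn 10 estimates were higher and 9 lower (median 0.01). Fbxw11, a ubiquitin ligase subunit that marks IkB proteins, read 133 to 149 CPM and Rbck1, a part of the linear ubiquitin ligase, 127 to 132 CPM over all 6 libraries. Tab2, an adaptor of the upstream kinase, read 180 CPM in CaP Zn0.8Mn replicate 1 against 117 to 129 CPM. The widest estimates of this list in that pair were 0.19 (SE 0.25) for Rnf31, 0.17 (SE 0.23) for Ikbke and -0.15 (SE 0.19) for Tab1, with SEs of 0.092, 0.10 and 0.11 without CaP Zn0.8Mn replicate 1, where 0 of the 19 had an unadjusted p under 0.05 in edgeR.

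Of 19 further brakes, 6 were over 2-fold lower and 2 over 2-fold higher in CaP Zn0.8Mn replicate 1, with a summed CPM of 1631 against 2201 to 2504. Their median log2 ratio there was -0.037, so the list did not lean either way. Below all 5 other libraries were 9 of the 19 (41.9% of all tested genes), and above all 5 were 6 (42%). Zfp36, which encodes the mRNA-destabilising protein tristetraprolin, read 20.2 CPM there against 134 to 189 CPM, and Zc3h12c, a relative of Zc3h12a, 41.3 against 199 to 259 CPM. Rc3h1, which encodes the RNA-binding protein Roquin-1, read 135 against 224 to 310 CPM and the signalling scaffold Sqstm1 334 against 723 to 834 CPM. On CaP Zn0.8Mn0.1Li against CaP Zn, 12 estimates were higher and 7 lower (median 0.01), with Zfp36 at 0.26 (SE 0.87), the inhibitory kinase-like gene Irak3 at 0.26 (SE 0.21) and Pdlim2 at -0.23 (SE 0.23). Fitted to the other 5 libraries, these SEs were 0.11, 0.12 and 0.12. At an unadjusted p under 0.05 in edgeR were then 2 of the 19, both higher. Zfp36 was among them, with an edgeR adjusted p of 0.967.

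The targets of NF-kB were the list with the widest departure of the 5, with 23 of 36 tested genes over 2-fold lower (18.2% of all tested genes) and 1 over 2-fold higher (15.4%) in CaP Zn0.8Mn replicate 1, a median log2 ratio of -1.80 and a summed CPM of 2066 against 3906 to 4810. The chemokine gene Ccl3 read 80.1 CPM there against 669 to 930 CPM, and Cflar, a survival gene, 149 against 291 to 346 CPM, while Plek, a phosphoprotein gene of blood cells, was higher at 841 against 577 to 627 CPM. On CaP Zn0.8Mn0.1Li against CaP Zn, 25 of the 36 estimates were higher and 11 lower (median log2 fold change 0.14), with none past the edgeR threshold. In the fit to the other 5 libraries the split and the median were the same, and 8 of the 36 higher and 1 lower had an unadjusted p under 0.05, against 5.02% of all tested genes. Lcn2, which encodes a siderophore-binding protein, read 41.1 and 72.7 CPM on CaP Zn0.8Mn0.1Li, 5.62 and 59.8 CPM on CaP Zn0.8Mn, and 14.8 and 20.2 CPM on CaP Zn. Saa3, an acute-phase gene, read 6.46 and 15.8 CPM on CaP Zn0.8Mn0.1Li, 0.991 and 16.2 CPM on CaP Zn0.8Mn, and 2.26 and 5.31 CPM on CaP Zn. Csf3, a granulocyte growth factor gene, read 11.5 and 15.5 CPM on CaP Zn0.8Mn0.1Li, 0.198 and 11.8 CPM on CaP Zn0.8Mn, and 5.32 and 5.44 CPM on CaP Zn. The Csf3 value of 0.198 CPM is 3 counts, the floor of that library. For all 3 genes, CaP Zn0.8Mn replicate 2 read like the lithium alloy and replicate 1 was the lowest library. Their log2 fold changes on CaP Zn0.8Mn0.1Li over CaP Zn were 1.70 (SE 1.01), 1.56 (SE 1.22) and 1.33 (SE 1.31) with all 6 libraries. These 3 genes were named for their large estimates in this pair and do not stand for the list. The median of the list was 0.14, beside a median of -0.07 for the 10 NF-kB genes, of which 3 had estimates above 0 and 7 below.

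The estimates of these 3 target genes for CaP Zn0.8Mn0.1Li over CaP Zn were nearly the same without CaP Zn0.8Mn replicate 1, and their errors shrank. Csf3 stood at 1.33 (SE 0.20), with an edgeR p of 7.1e-06 before and 0.0934 after adjustment, the smallest adjusted p of all tested genes and still short of the threshold. Lcn2 stood at 1.70 (SE 0.39), with an edgeR p of 0.0179 before and 0.943 after adjustment. Saa3 stood at 1.58 (SE 0.69), with an edgeR p of 0.0915 before and 0.981 after adjustment. On the same 5 libraries limma-voom called 3 genes (0.0228% of all tested genes), 0 of the 10 NF-kB genes and 2 of the 36 targets. These were Lcn2 (1.67, SE 0.23, adjusted p = 0.0235) and Mmp9 (1.18, SE 0.17, adjusted p = 0.0235), and its adjusted p for Csf3 was 0.0644. DESeq2 called 12 genes and none of the targets. It gave no adjusted p for Lcn2, Saa3, Csf3 and Mmp9, so it could not call these 4. Their unadjusted DESeq2 p was 0.00018, 0.059, 5.3e-07 and 0.0046 in that order.

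Mmp9, which encodes a secreted protease of matrix and was named after its values were seen, read 73.6 and 82.7 CPM on CaP Zn0.8Mn0.1Li, 6.67 and 70.5 CPM on CaP Zn0.8Mn, and 26.6 and 45.9 CPM on CaP Zn. As for Lcn2, Saa3 and Csf3, both lithium-alloy libraries lay above both CaP Zn libraries, where those of 16.7% of all tested genes did. Lcn2, Saa3 and Csf3 were named for their large estimates in this same pair, so the separation is not further evidence. In CaP Zn0.8Mn over CaP Zn, without CaP Zn0.8Mn replicate 1, 6 of the 36 targets were higher and 0 lower at an unadjusted p under 0.05 in edgeR (4.33% of all tested genes), with Csf3 at 1.14 (SE 0.24, adjusted p = 0.450). There limma-voom called 4 genes (0.0304%), among them Lcn2 at 1.80 (SE 0.27, adjusted p = 0.0296). In CaP Zn0.8Mn0.1Li over CaP Zn0.8Mn 1 was higher and 1 lower (3.16%). With a further library omitted from the lithium alloy or CaP Zn, the edgeR estimates in CaP Zn0.8Mn0.1Li over CaP Zn kept their sign. They ran from 1.23 to 2.06 for Lcn2, 0.79 to 2.30 for Saa3, 1.10 to 1.52 for Csf3 and 0.77 to 1.56 for Mmp9. Each such fit has 1 residual degree of freedom and leaves a compared group with 1 library, which adds nothing to the error. Calls of these genes are therefore not given.

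Of the other measures that moved with the low library, all 12 tested mitochondrial mRNAs were over 2-fold higher there (median log2 ratio 3.49). Of 12 macrophage markers 4 were over 2-fold higher, among them Csf1r at 1598 against 319 to 374 CPM, and 2 lower, and their summed CPM of 12167 lay within the range of the others, 12081 to 17954. Of 8 tested osteoclast markers 2 were over 2-fold higher and 3 lower, with a sum of 231 against 253 to 364 CPM, where Acp5 read 6.01 against 36.8 to 52.1 CPM and Ctsk 40.1 against 67.3 to 120.3 CPM. Fibroblast, lymphocyte and granulocyte lists summed to 1 to 18, 0 to 3 and 5 to 36 counts per library. The part of any of these in the levels of the 10 genes was not tested.

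Genes with patterns most like those of 3 members were found by the root mean square difference of log2 CPM, centred on each gene's mean over the 6 libraries, among 7291 genes of at least 20 CPM. With 6 libraries of which 1 stands apart, this mainly ranks genes by how far they move in CaP Zn0.8Mn replicate 1, and it is a description. Nearest to Zc3h12a were Cd40 (difference 0.082), Ptgs2 (0.084) and Romo1 (0.10), with Cd40, the co-stimulatory receptor, at 5.22 against 27.6 to 36.7 CPM and Ptgs2, the inducible cyclooxygenase, at 22.1 against 140.9 to 162.9 CPM. Nearest to Nfkbia were Ndufa7 (0.045), Mafk (0.053) and Rpl13 (0.055), and nearest to Nfkbie were Runx1 (0.066), Phlpp1 (0.074) and Csf2rb (0.091), with Runx1, a transcription factor of blood cells, at 85.4 against 34.8 to 44.4 CPM.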

How the data were processed

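The authors deposited whole-number read counts per gene and values that, per the file headers, are FPKM. The counts carry no normalization, and for aligner and counter the entry is: not given in the sources used here. Build mm9 stands in the submitters' processing notes, whereas 53585 of 54495 gene identifiers matched to GENCODE M21 (98.3%) have its GRCm38 start and end, so coordinates are printed as GRCm38. For 9 of the 10 genes they match, and for Nfkb2 they differ. The tables hold 0 columns of other samples.

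Counts were tested with edgeR 4.0.16 in R 4.3.3 (quasi-likelihood, robust, TMM, filterByExpr, a group-means model over 6 libraries with 3 residual degrees of freedom, two-sided, Benjamini-Hochberg over 13156 genes). The procedure was tested on simulated counts in which no library stood apart, so that test does not cover this feature of the data. FPKM served for levels between genes. Floors of 3 counts cover counting error only. Alternatives used DESeq2 1.42.0, limma 3.58.1, other scalings and filters, a replicate block and omitted libraries. Replicate numbers came from the sample titles.

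Members and gene lists were chosen with earlier results of these data known. The text names all 10 members, from each pathway list the called genes, the 3 highest in CPM and the 3 of largest absolute estimate in CaP Zn0.8Mn0.1Li over CaP Zn, and defining markers.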

Additional observations from a re-analysis of the deposited data

How the results depend on the processing

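For the 10 genes, single-library omissions other than CaP Zn0.8Mn replicate 2 and every other scaling, filter, tool and unit run on all 6 libraries left 0 called. The numbers of the titles did not pair the libraries (r between deviations of like-numbered libraries 0.26, -0.16 and -0.095), and the replicate block called 0 genes in each comparison (21 genes for CaP Zn0.8Mn0.1Li over CaP Zn, 132 for CaP Zn0.8Mn over CaP Zn and 213 for CaP Zn0.8Mn0.1Li over CaP Zn0.8Mn at an unadjusted p under 0.05). With 2 libraries a group and 3 residual degrees of freedom, 1 library that stands apart enters the shared error of every test on all 6 libraries.

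Counts over all genes moved as follows. For CaP Zn0.8Mn0.1Li over CaP Zn, 5 libraries gave 12 by DESeq2 and 3 by limma-voom. For CaP Zn0.8Mn over CaP Zn, DESeq2 gave 1, no filter 1, and 5 libraries gave 5 by DESeq2, 4 by limma-voom and 1 with library totals only. For CaP Zn0.8Mn0.1Li over CaP Zn0.8Mn the same settings gave 3, 1, 3, 3 and 2. Over all omissions, called genes ran from 0 to 454, 0 to 7808 and 0 to 8096 in that order of comparisons, and members called from 0 to 1, 0 to 9 and 0 to 8. Omissions of a second library besides CaP Zn0.8Mn replicate 1 were added after the data were seen and leave 1 residual degree of freedom. Among them, the Nfkbia estimate in CaP Zn0.8Mn0.1Li over CaP Zn reached 0.41 (without CaP Zn replicate 2 as well). The upper ends of the called counts above come from fits that leave a compared group with 1 library, which adds nothing to the error. The edgeR adjusted p for Nfkbia in that pair was 0.981 with 5 libraries.

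In both comparisons with CaP Zn0.8Mn, signs changed among the 10 where CaP Zn0.8Mn replicate 1 was omitted. In CaP Zn0.8Mn over CaP Zn, DESeq2, limma-voom and library totals gave 0.10, 0.12 and 0.044 for Nfkbia, -0.12, -0.089 and -0.18 for Nfkbie, and 0.074, 0.073 and 0.0073 for Tnip1, and limma-voom 0.017 for Tnfaip3. In CaP Zn0.8Mn0.1Li over CaP Zn0.8Mn they gave 0.10, 0.10 and 0.13 for Nfkb1, -0.11, -0.11 and -0.082 for Nfkb2, and -0.14, -0.14 and -0.12 for Tnip1, and DESeq2 and limma-voom -0.0018 and -0.0024 for Relb and -0.021 and -0.020 for Zc3h12a. Over omissions, members whose sign changed ranged as follows. In CaP Zn0.8Mn0.1Li over CaP Zn they were Nfkbia (-0.0048 to 0.41), Nfkbiz (-0.17 to 0.0092) and Tnfaip3 (-0.051 to 0.34). These changed sign where a CaP Zn or lithium-alloy library was omitted. In CaP Zn0.8Mn over CaP Zn the members were Nfkb1 (-0.24 to 0.089), Nfkbia (-1.48 to 0.32), Nfkbie (-0.31 to 1.01), Tnfaip3 (-0.91 to 0.20) and Tnip1 (-1.18 to 0.088). In CaP Zn0.8Mn0.1Li over CaP Zn0.8Mn they were Nfkb1 (-0.17 to 0.10), Nfkb2 (-0.17 to 0.57), Relb (-0.066 to 0.35), Tnfaip3 (-0.012 to 1.04), Tnip1 (-0.17 to 1.11) and Zc3h12a (-0.026 to 2.55). The cause was not tested.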

Other observations

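Early-response genes with short-lived mRNAs, several of which NF-kB also regulates, were read from a list of 20, all tested. In CaP Zn0.8Mn replicate 1, 11 of the 20 were over 2-fold lower and 4 over 2-fold higher than the mean of the other 5 libraries, beside 18.2% and 15.4% of all tested genes, with a median log2 ratio of -1.31. Their summed CPM was 567 there and 1012 to 1313 in the others. On CaP Zn0.8Mn0.1Li against CaP Zn, 12 estimates were higher and 8 lower (median log2 fold change 0.09), and 0 passed in edgeR with 6 or 5 libraries. At an unadjusted p under 0.05 in edgeR were 0 of the 20 with 6 libraries, beside 0.22% of all tested genes. With 5 libraries 2 higher and 1 lower were, beside 5.02%. Of this list, Ier3 and Junb also belong to the NF-kB targets and Zfp36 to the further brakes.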
